A study of Mus musculus with 2 samples.

Results

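CD4 T cells were examined in the 2 scRNA-seq libraries of neonatal mouse lung, 1 from room air and 1 from hyperoxia. A cell was kept if 500 or more genes were detected in it and no more than 20% of its unique molecular identifiers (UMIs, the tags that mark each counted mRNA molecule) came from mitochondrial genes. A kept cell was called a CD4 T cell when it held at least 2 UMIs of the CD3 genes *Cd3e*, *Cd3d* and *Cd3g* together, at least 1 UMI of *Cd4*, and none of *Cd8a*, *Cd8b1*, *Cd79a*, *Csf1r*, *Cdh5* or *Epcam*. This rule found 87 CD4 T cells among the 3809 kept cells of room air and 273 among the 11711 of hyperoxia, 360 of 15520 in all. Both groups were C57BL/6 mice, and whole lungs were taken at 2 weeks of age. Mice of the hyperoxia group had breathed 80% O2 from postnatal day 0 to day 14, and mice of the room air group 21% O2 over the same days. The lungs of 8 mice were pooled into 1 library per group, so that single mice could not be told apart, neither group had a replicate, and no test between the groups was possible. Every interval given is a 95% interval of counting error alone and does not hold the variation between mice or between libraries. Intervals of levels and ratios take each UMI as an independent draw and so leave out variation between cells as well.

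CD4 T cells recognize peptides on MHC class II molecules through a T cell receptor joined to the CD3 chains, with CD4 as the co-receptor. Naive cells circulate between blood and lymphoid organs and depend on interleukin 7 for survival, whereas activated cells become helper cells, such as Th1 cells that secrete interferon gamma, or memory cells that can stay in tissues such as the lung. Regulatory T cells, which express the transcription factor Foxp3, restrain the other T cells.

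Few members lay near the limit for CD3 and many near that for *Cd4*. The median CD4 T cell held 14 CD3 UMIs in room air (highest 57) and 8 in hyperoxia (highest 43). A CD3 sum of exactly 2 was seen in 0 members in room air and 9 in hyperoxia, and 0 and 6 cells met everything else with a CD3 sum of 1. *Cd4* (chr6:124864692-124888221, GRCm38) was the sparser gene, with a median of 2 UMIs per member in room air and 1 in hyperoxia. A total of 36 members in room air and 149 in hyperoxia held exactly 1 *Cd4* UMI, and 64 and 305 T cells met the whole rule but for a *Cd4* UMI. These T cells with neither *Cd4* nor *Cd8* transcripts can include CD4 T cells whose *Cd4* mRNA was not captured. A further 3 and 14 cells were left out for 1 *Cd8a* or *Cd8b1* UMI. The members had a median of 6351 UMIs and 1931 genes in room air, and 4819 UMIs and 1686 genes in hyperoxia, and summed to 726446 and 1556555 UMIs. The kept cells of the libraries summed to 39090214 and 109873831 UMIs. The libraries shared 17 barcodes, none of which was a member in both.

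Several T cell genes that the rule did not use were detected in most members. *Bcl11b*, a transcription factor needed for T cell identity, was detected in 80 of 87 members in room air and 242 of 273 in hyperoxia. The co-stimulatory receptor gene *Cd28* was detected in 75 and 222, and the adaptor gene *Lat* in 69 and 198. Others were sparser, such as the kinase gene *Zap70* in 39.1% and 31.1% and the surface antigen gene *Cd6* in 50.6% and 40.3%. *Cd40lg*, the ligand through which helper cells activate B cells, was detected in 16.1% of members (9.09 to 25.5) in room air against 13.9% (10.0 to 18.6) in hyperoxia, with 1.49% and 0.24% in CD8 T cells and none in B cells. *Zbtb7b*, the transcription factor of the CD4 lineage, was found in 19 and 38 members. As the rule required, *Cd8a*, *Cd79a*, *Csf1r*, *Cdh5* and *Epcam* were at 0 UMIs.

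Transcripts of other cells were present as well. Levels are given as CPM, the UMIs of a gene summed over the CD4 T cells of a library and scaled to a sum of 1000000 UMIs over all genes. The 8 measured B cell markers summed to 68.8 CPM in room air, 97.7 CPM in hyperoxia, and 18752 and 17493 CPM in the B cells themselves, and 1 of the 8 was at 0 in each library. The 10 NK cell markers summed to 513 and 257 CPM, with *Ncr1*, *Klra8* and *Klra4* at 0 in both. The 12 myeloid markers summed to 505 and 633 CPM (3 and 1 of them at 0), the 10 endothelial markers to 217 and 270 CPM (2 at 0 in each), the 8 neutrophil markers to 31.7 and 45.6 CPM (2 at 0 in each), and the 8 dendritic cell markers to 8.26 and 14.1 CPM (5 and 6 at 0). All 4 mast cell and basophil markers were at 0. The 12 epithelial markers summed to 859 and 3333 CPM (4 and 1 at 0), of which 290 and 2506 CPM were the surfactant gene *Sftpc*, which in B cells was likewise higher in hyperoxia, by 2.86 on the log2 scale. The 12 stromal markers summed to 1415 and 1971 CPM (0 and 2 at 0). Of the UMIs of 6 stromal, epithelial and myeloid genes (*Col1a2*, *Col3a1*, *Mfap4*, *Acta2*, *Sftpb* and *Lyz2*), 83.3% lay in 4 members of room air and 86.7% in 11 of hyperoxia, each with 10 or more of them. These cells had medians of 19851.5 and 16631 UMIs, and results that differ without them are given with both values.

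Measured over all kept cells, CD4 T cells as chosen by the rule made up almost the same share in both libraries. The share of CD8 T cells was larger in hyperoxia. CD4 T cells were 2.28% (1.83 to 2.81) of the room air cells and 2.33% (2.07 to 2.62) of the hyperoxia cells, a difference of 0.05 percentage points (-0.54 to 0.58). CD8 T cells, chosen by the mirrored rule, numbered 67, or 1.76% (1.37 to 2.23), against 417, or 3.56% (3.23 to 3.91), a difference of 1.80 points (1.23 to 2.33). T cells with neither *Cd4* nor *Cd8* transcripts made up 1.68% and 2.60%, a difference of 0.92 points (0.38 to 1.41). When *Cd4* was not required and *Ncr1* was at 0, the share of kept cells was 1.25 points (0.51 to 1.95) higher in hyperoxia. As a share of all T cells, CD4 T cells made up 37.8% (31.5 to 44.4) in room air against 26.7% (24.0 to 29.5) in hyperoxia. As a share of CD4 and CD8 T cells together, they made up 56.5% (48.3 to 64.5) and 39.6% (35.9 to 43.3), a difference of -16.9 points (-25.7 to -7.89). The median CD8 T cell held 8664 UMIs in room air and 6076 in hyperoxia, and a lower depth leaves more cells without a *Cd4* UMI. With every kept cell thinned to 2000 UMIs before the rule was applied, CD4 T cells were 42.6% (32.8 to 52.8) of the CD4 and CD8 T cells of room air and 33.6% (29.3 to 38.2) of those of hyperoxia, a difference of -8.95 points (-20.1 to 1.84) that no longer lay beyond counting error.

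**Figure D1:**
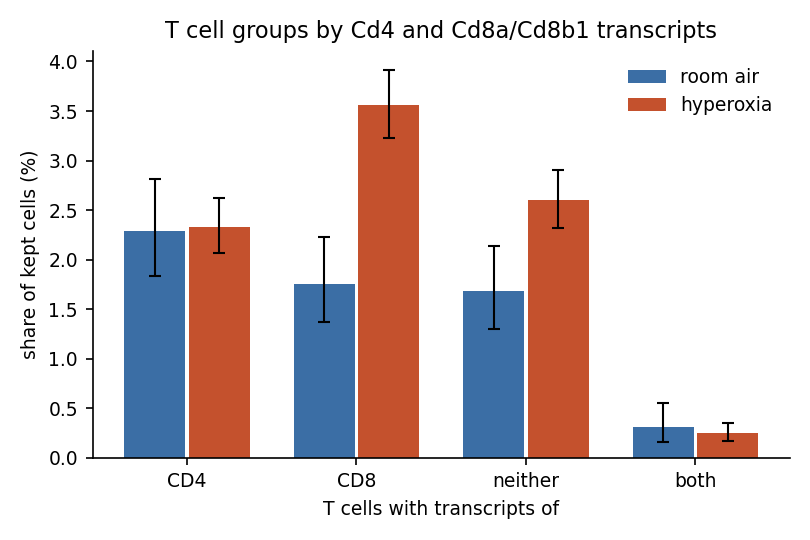
Share of T cell groups among kept cells (y axis, %) in room air and hyperoxia, with T cells grouped by the transcripts they held (x axis), bars for the share and error bars for exact 95% counting intervals of 1 library each. The CD4 bars stand at 2.28% and 2.33%, and the CD8 bars at 1.76% and 3.56%.

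Gene levels were compared between the CD4 T cells of the libraries over 2824 genes with a mean of at least 50 CPM. A gene was counted as higher or lower when its CPM differed at least 1.5-fold, a limit of size and not a test. Of these genes, 208 (7.37%) were higher in hyperoxia and 230 (8.14%) lower, and the median log2 ratio of all of them was 0.02. Counts of higher and lower genes in the lists compared between the libraries below are to be read beside these shares. In 843 of the genes, the CPM in CD4 T cells of the library where it was higher reached at least that in B, myeloid, neutrophil, endothelial, epithelial and stromal cells, and of these the top 12 and bottom 12 by ratio are described first.

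Among these 12 and 12 genes, *Il7r* had the largest ratio of hyperoxia over room air. *Il7r* (chr15:9505788-9530176) encodes the interleukin 7 receptor alpha chain, a survival receptor of naive and memory T cells. Its level was 169 CPM (141 to 202) in room air against 508 CPM (473 to 545) in hyperoxia (log2 ratio 1.59, 1.31 to 1.87). It was detected in 44 of 87 members in room air, or 50.6% (39.6 to 61.5), and in 191 of 273 in hyperoxia, or 70.0% (64.1 to 75.3). The positive cells held a median of 2 *Il7r* UMIs in room air and 4 in hyperoxia, so that both the number of positive cells and the UMIs in each were higher in hyperoxia. After each cell was thinned to 2000 UMIs, 29.8% and 54.7% of the cells were positive, a difference of 24.9 points (12.3 to 36.2). The log2 ratio of *Il7r* was 0.41 in CD8 T cells, 0.27 in T cells with neither co-receptor and 1.45 in B cells, in which 4.18% and 9.77% of the cells held a UMI. It was 1.09 among CD4 T cells without *S100a4* UMIs and 1.66 without the cells rich in stromal, epithelial and myeloid transcripts.

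The other genes of the top 12 had log2 ratios from 0.98 to 1.27. *Cited2*, a regulator of transcription, stood at 131 and 306 CPM (1.23, 0.91 to 1.56) and was detected in 45 and 169 members. *Nr4a3*, an immediate early nuclear receptor gene switched on by T cell receptor signals, stood at 70.2 and 159 CPM (1.18, 0.74 to 1.64). The sialyltransferase gene *St8sia6*, taken here as a marker of the CD4 lineage, stood at 44.1 and 97.0 CPM (1.14, 0.58 to 1.74) and was found in 19 and 91 members. *Rictor*, a subunit of the kinase complex mTORC2, stood at 34.4 and 74.5 CPM (1.11), *Nrip1*, a nuclear receptor co-regulator, at 149 and 293 CPM (0.98), and *Use1*, a protein of vesicle fusion, at 107 and 220 CPM (1.04). *Jmy* (1.07), *Fbxo33* (1.06), *Tdrp* (0.99) and the pseudogene *Rpl23a-ps3* (1.14), which can share reads with its parent gene, complete the top 12 together with *Cenpf* (1.27), a mitosis gene found in only 7 and 15 members.

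At the other end, *Ifng* (chr10:118441046-118445892), the gene of interferon gamma and the main cytokine of Th1 cells, had the lowest ratio. It stood at 149 CPM (122 to 179) in room air against 30.8 CPM (22.7 to 40.9) in hyperoxia (log2 ratio -2.27, -2.79 to -1.77). These UMIs came from few cells, 12 of 87 in room air and 14 of 273 in hyperoxia, and 3 room air cells held 48 of the 108 UMIs. In CD8 T cells the ratio was 1.37, and in T cells with neither co-receptor -1.41. *Nkg7* (chr7:43437073-43438249), a protein of cytotoxic granules, stood at 384 and 131 CPM (-1.55, -1.82 to -1.29), in 15 and 24 members. In CD8 T cells, where most cells hold it, its log2 ratio was 0.55. *S100a4* (chr3:90603771-90606045), a calcium-binding protein of activated and memory T cells, stood at 1138 CPM (1062 to 1219) against 506 CPM (471 to 542), and its log2 ratio of -1.17 (-1.31 to -1.03) compares with 0.66 in CD8 T cells. *Crip1*, a LIM domain protein of effector and memory cells, stood at 3005 and 1405 CPM (-1.10), and it was lower to the same extent in B cells (-1.12).

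The remaining genes of the bottom 12 were genes of DNA replication and 5 further genes, 4 of which were lower in CD8 T and B cells as well. *Hist1h2ap* (-1.85), *Hist1h2ae* (-1.28) and *Rrm2* (-1.55), histones and a subunit of the enzyme that makes DNA precursors, were detected in 9 to 11 members of room air, and 3 cells held 75% of the *Hist1h2ap* and 69.4% of the *Rrm2* UMIs there. *Gm11808* was at -1.43 in CD4 T cells, -1.31 in CD8 T cells and -1.43 in B cells. *Tmem258* was at -1.30, -0.65 and -0.75 in the same cells, and the ATP synthase subunit gene *Atp5k* at -1.28, -0.40 and -0.64. *Dtx3l*, a ubiquitin ligase, was at -1.15, -0.57 and -0.30, and the mitochondrial protein gene *Dnajc15* at -1.08, 0.08 and -0.02.

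**Figure D2:**
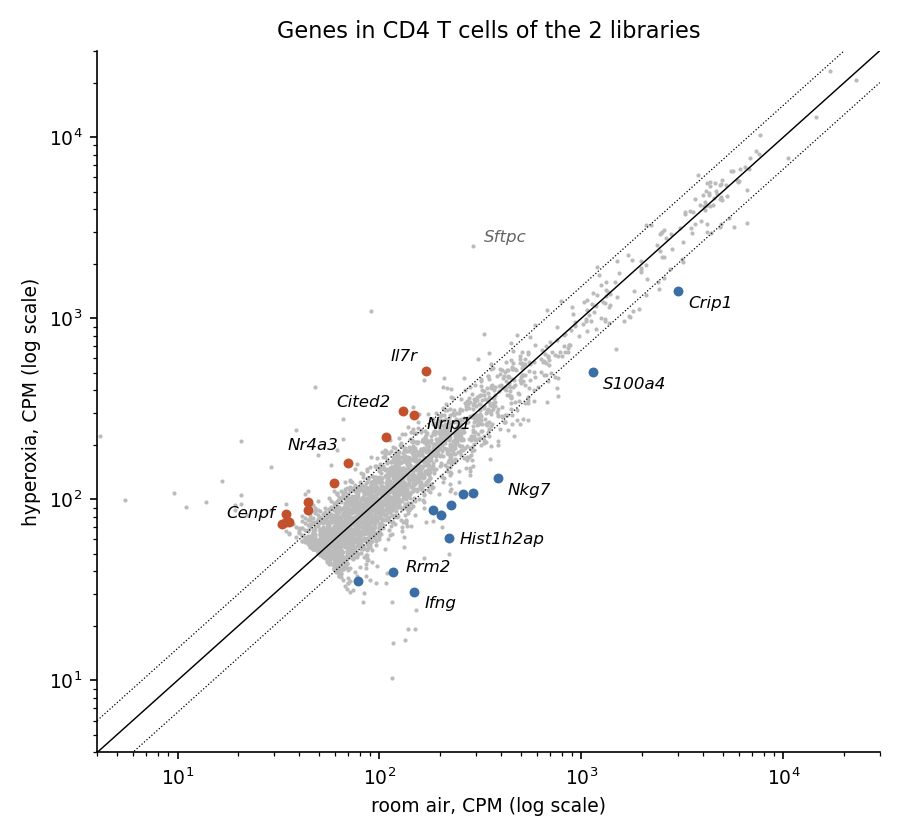
CPM of the 2824 genes in CD4 T cells of room air (x axis) and hyperoxia (y axis), both on log scales, with equality as the solid line and 1.5-fold as dotted lines. The top 12 and bottom 12 genes are red where higher and blue where lower in hyperoxia: *Il7r* lies at 169 and 508 CPM, *Ifng* at 149 and 30.8 CPM, and the grey point of *Sftpc* is an epithelial transcript. Genes below the lower end of an axis, such as *Saa3* at 0 CPM in room air, are not drawn.

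Genes of naive T cells were mostly higher in hyperoxia. Of 15 genes of naive and recirculating cells, 14 could be compared, of which 5 were at least 1.5-fold higher, none was lower and 13 had a ratio above 1. Their median log2 ratio was 0.52, against -0.20 in CD8 T cells, 0.23 in T cells with neither co-receptor and 0.05 in B cells. Without *S100a4*+ cells it was 0.21. Besides *Il7r*, the higher genes were *Igfbp4* (226 and 407 CPM, 0.85, 0.60 to 1.11), *Satb1* (796 and 1243 CPM, 0.64, 0.51 to 0.78), which encodes a chromatin organizer of T cells, *Dapl1* (60.6 and 95.1 CPM, 0.65) and *Bach2* (99.1 and 149 CPM, 0.59), which encodes a repressor that holds T cells in the naive state. The transcription factors *Lef1* (366 and 528 CPM, 0.53) and *Tcf7* (460 and 659 CPM, 0.52) stayed under the limit. The homing receptor gene *Ccr7* differed less, with 162 and 209 CPM (0.36, 0.05 to 0.68), and *Klf2*, which drives the genes of recirculation, had a ratio of -0.02 (-0.24 to 0.20).

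Genes of activated and memory cells were mostly lower. Of 21 such genes, 18 could be compared, of which none was higher and 8 were at least 1.5-fold lower, with a median log2 ratio of -0.44 in CD4 T cells, 0.66 in CD8 T cells and -0.08 in T cells with neither co-receptor. The median in CD4 T cells was -0.09 without *S100a4*+ cells, -0.71 without the cells rich in stromal, epithelial and myeloid transcripts and -0.9996 without *Foxp3*+ cells. Next to *S100a4* and *Crip1*, the lower genes were *S100a6* (1491 and 680 CPM, -1.13, -1.26 to -1.01), *S100a11* (770 and 373 CPM, -1.04), *S100a10* (1748 and 1018 CPM, -0.78), the galectin gene *Lgals1* (1934 and 1120 CPM, -0.79), the membrane-binding protein gene *Anxa2* (288 and 164 CPM, -0.81) and the integrin gene *Itgb1* (512 and 278 CPM, -0.88). The adhesion receptor *Cd44* had a ratio of -0.19 (-0.56 to 0.19), the early activation antigen *Cd69* of 0.20 (-0.04 to 0.44) and the co-stimulator *Icos* of 0.45 (0.17 to 0.74).

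The same was seen in the number of positive cells. *S100a6* was detected in 39 of 87 members (44.8%) in room air and 75 of 273 (27.5%) in hyperoxia, a difference of -17.4 points (-29.6 to -5.25), and of -17.4 points (-29.6 to -5.88) after thinning to 2000 UMIs. In B cells the shares with a *S100a6* UMI were 24.2% and 19.5%. *S100a4* was detected in 29.9% and 19.8%, a difference of -10.1 points (-21.8 to 0.60) that became -13.2 points (-24.9 to -2.68) after thinning. In B cells a *S100a4* UMI was found in 6.69% and 4.18% of cells, at medians of 4722 and 2986 UMIs. *Cd44* was found in 35.6% and 23.1% of CD4 T cells, with 37.6% and 30% in B cells. After thinning to 2000 UMIs the shares were 26.2% and 12.4% in CD4 T cells (-13.8 points, -25.2 to -3.75), beside 57 of 335 and 215 of 1082 B cells, and after thinning to 1000 UMIs the difference in CD4 T cells was -0.71 points (-9.38 to 5.79).

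Of 9 Th1 genes, 5 could be compared, and 3 of them were lower and none higher in hyperoxia, with a median log2 ratio of -0.91 (0.55 in CD8 T cells and -1.18 in T cells with neither co-receptor). In addition to *Ifng* and *Nkg7*, *Stat4*, which transmits interleukin 12 signals, stood at 86.7 and 46.3 CPM (-0.91, -1.41 to -0.40), and *Ccl5* at 226 and 164 CPM (-0.46). *Tbx21*, the gene of the Th1 transcription factor T-bet, had too few UMIs for the comparison of levels (36 and 25), but was detected in 17.2% and 4.76% of members, a difference of -12.5 points (-22.3 to -4.53), and of -5.64 points (-13.5 to -0.62) after thinning. The chemokine receptor *Cxcr3* was detected in 21.8% and 7.33% (-14.5 points, -25.0 to -5.54, and -9.22, -17.9 to -3.08, after thinning), *Nkg7* in 17.2% and 8.79% (-8.45 points, -18.5 to -0.16, and -12.2, -22.4 to -3.97, after thinning), and *Ifng* in 13.8% and 5.13% (-8.66 points, -18.0 to -1.40, and -5.78, -14.4 to 0.35, after thinning). At most 1.25% of B cells in either library held a UMI of *Tbx21*, *Cxcr3*, *Nkg7* or *Ifng*. After thinning to 1000 UMIs the differences in *Tbx21* (-0.82 points, -6.68 to 2.21), *Cxcr3* (-1.23, -7.69 to 2.50) and *Ifng* (-1.65, -8.61 to 2.69) were within counting error, and that in *Nkg7* (-9.04, -18.6 to -1.44) was not. *Nkg7* is also one of the NK cell markers, of whose 373 and 400 UMIs it held 279 and 204. Of the other NK cell markers, *Ncr1*, *Klra8* and *Klra4* were at 0 in both libraries, while *Gzma* had 39 and 95 UMIs and *Gzmb* 36 and 58. The 6 annotated genes of innate-like T and innate lymphoid cells summed to 105 and 55.3 CPM, of which *Klrd1* held 79.8 and 19.9 CPM. Innate-like T cells were not told apart from other members.

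**Figure D3:**
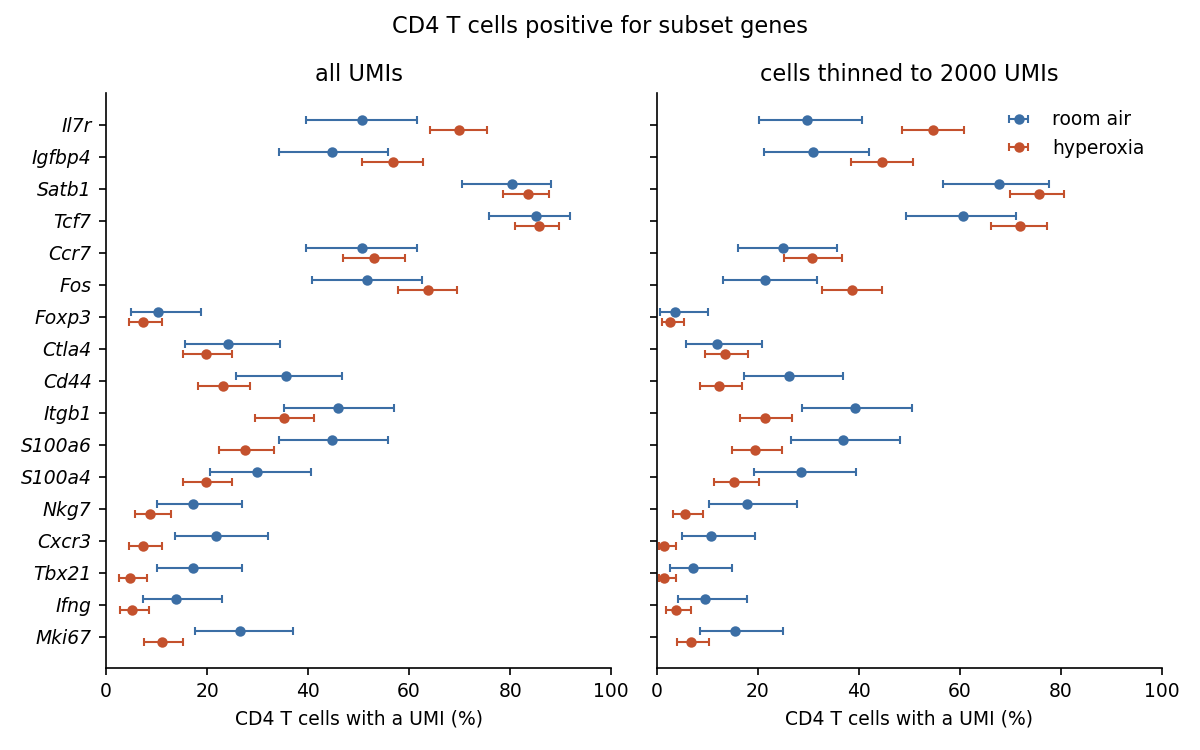
Share of CD4 T cells with at least 1 UMI of each gene (x axis, %) in room air (87 cells) and hyperoxia (273 cells), on the left with all UMIs and on the right after thinning each cell to 2000 UMIs, with exact 95% counting intervals. *Il7r* lies further right in hyperoxia in both panels (54.7% against 29.8% after thinning), and *S100a6*, *S100a4*, *Nkg7*, *Cxcr3* and *Tbx21* lie further left.

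Most of the activated, memory and Th1 genes had higher levels in the same cells, but not all were confined to them. When members were split by *S100a4*, the 26 positive cells of room air and 54 of hyperoxia differed from the 61 and 219 negative cells in a large part of the genes: 592 of 2889 (20.5%) were at least 1.5-fold higher in the positive cells of both libraries and 211 (7.3%) lower. The positive cells were deeper, with medians of 10978 and 6370.5 UMIs against 5743 and 4640. Among activated and memory genes 18 of 20 were higher in both libraries, and among Th1 genes 6 of 7. Negative cells held some of them too: *Itgb1* was detected in 15 of the 61 and 56 of the 219, and *Cd44* in 12 and 31. The largest ratios were those of *Gzmb* and *Gzma* (granzymes), *Klrg1* (an inhibitory receptor of effector cells), *Nkg7*, *Ccr2*, *Cxcr6* and *Cxcr3* (chemokine receptors), *Osbpl3* and *Lgals3*, and among activated and memory genes *S100a4* itself was counted. *Cxcr3* stood at 152 CPM in positive and 2.48 CPM in negative cells of room air, and at 75.9 and 4.46 CPM in hyperoxia. Of 14 naive genes 10 were lower in positive cells of both libraries, among them *Igfbp4* (6.20 against 401 CPM in room air, 85.1 against 531 CPM in hyperoxia), *Satb1* (202 against 1270 and 237 against 1633 CPM), *Bach2*, *Dapl1*, *Ly6c1* and *St8sia6*. *Acta2*, *Ltbp2*, *Tgfbi* and *Saa3*, also among the genes with the smallest ratios, were detected in at most 4 positive cells of a library. All 18 cell cycle genes were higher in positive cells, as were 17 of 28 oxidative phosphorylation genes and 8 of 10 genes of regulatory T cells.

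The *S100a4*+ cells themselves differed between the libraries. Of the 26 in room air, 14 held *Tbx21* (53.8%), 18 *Cxcr3* (69.2%) and 12 *Ifng* (46.2%). Of the 54 in hyperoxia, 8 held *Tbx21* (14.8%), 16 *Cxcr3* (29.6%) and 11 *Ifng* (20.4%). The differences were -39.0 points (-60.2 to -15.1) for *Tbx21*, -39.6 (-59.8 to -14.4) for *Cxcr3* and -25.8 (-48.5 to -2.20) for *Ifng*. After thinning to 2000 UMIs they were -17.3 (-37.5 to -2.26), -25.1 (-46.6 to -5.86) and -15.7 (-38.3 to 4.98), so that the difference in *Ifng* was then within counting error. The *S100a4*+ cells were assigned on all UMIs, and only the genes counted in them were thinned. After thinning, 24 of 26 and 41 of 53 still held *S100a4*, so the choice of cells was not matched for depth. *Il7r* went the other way, with 9 positive cells (34.6%) in room air and 35 (64.8%) in hyperoxia, a difference of 30.2 points (4.81 to 51.6), and 28.0 (4.28 to 46.1) after thinning. *Foxp3*+ cells were 5 of the 26 and 18 of the 54. Among the *S100a4*+ *Foxp3*- cells (21 and 36) the differences were -39.7 points (-63.1 to -10.7) for *Tbx21* and -45.6 (-66.7 to -16.4) for *Cxcr3*, and within counting error for *Ifng* (-26.6, -52.0 to 2.44) and *Il7r* (27.0, -2.37 to 50.9). After thinning they were -16.2 (-39.2 to 1.99) for *Tbx21*, -24.8 (-49.3 to -1.07) for *Cxcr3* and 28.6 (1.01 to 49.6) for *Il7r*. These cells had medians of 11177 and 5652.5 UMIs. Genes outside the Th1 list were also found in fewer cells of hyperoxia. *Itgb1* was in 25 of the 26 and 40 of the 54 *S100a4*+ cells (-22.1 points, -36.3 to -2.85). *Gata3* was in 16 of the 21 and 14 of the 36 *S100a4*+ *Foxp3*- cells (-37.3, -59.5 to -8.03, and -12.4, -37.1 to 9.47, after thinning). The *S100a4*+ cells held a median of 28 *S100a4* UMIs in room air and 10 in hyperoxia. Outside the *S100a4*+ cells, *Ifng* was found in 0 of 61 and 3 of 219 members. The split was made after the values of *S100a4* had been seen.

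**Figure D4:**
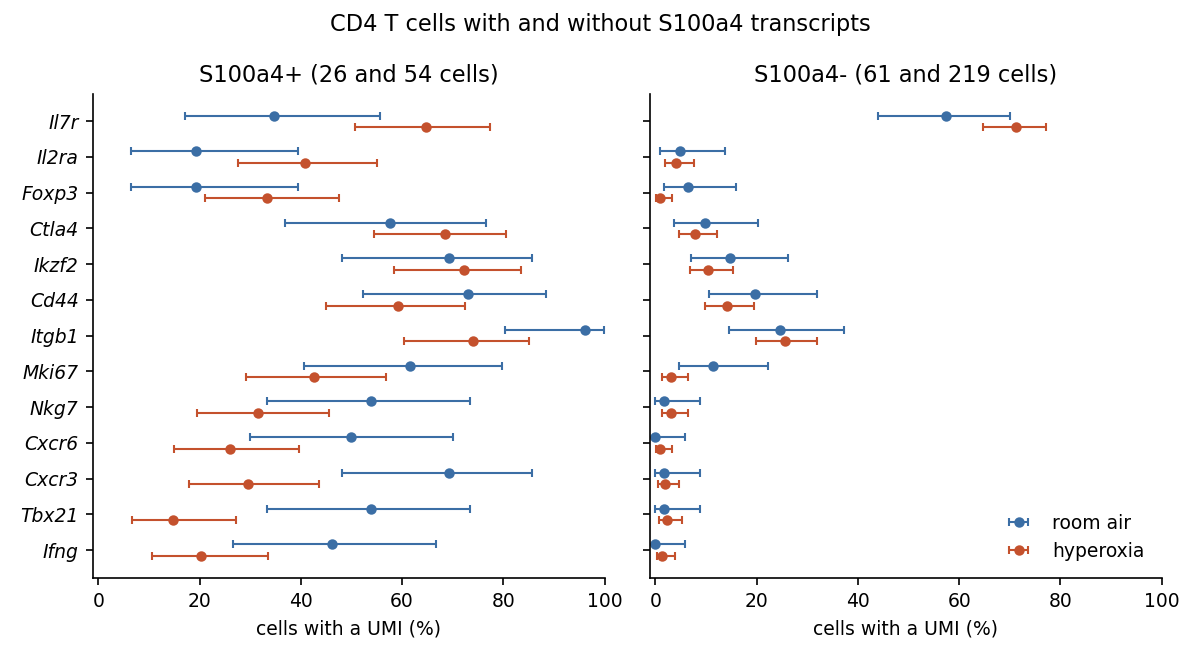
Share of cells with a UMI of each gene (x axis, %) among *S100a4*+ (left) and *S100a4*- (right) CD4 T cells of room air and hyperoxia, with all UMIs and exact 95% counting intervals. Among *S100a4*+ cells *Tbx21*, *Cxcr3* and *Ifng* lie lower in hyperoxia (14.8%, 29.6% and 20.4%) than in room air (53.8%, 69.2% and 46.2%), and they are near 0 in the *S100a4*- cells of both.

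Regulatory T cells were few in both libraries. *Foxp3* (chrX:7573644-7595245) was detected in 9 of 87 members in room air, or 10.3% (4.84 to 18.7), and 20 of 273 in hyperoxia, or 7.33% (4.53 to 11.1), a difference of -3.02 points (-11.9 to 3.65). It was found in none of the 359 and 1197 B cells and in 0 and 3 CD8 T cells. Its level was 35.8 CPM in room air against 32.1 CPM in hyperoxia. *Foxp3*+ cells were deeper than the rest, with medians of 10779 and 7847 UMIs against 6299.5 and 4766. Of 2961 genes, 324 (10.9%) were at least 1.5-fold higher in *Foxp3*+ than in *Foxp3*- cells of both libraries and 154 (5.2%) lower. Of 12 regulatory T cell genes, *Foxp3* included, 9 were higher in both libraries and none lower, among them *Ctla4*, a receptor that blocks co-stimulation (384 against 53.9 CPM in room air, 1119 against 68.7 CPM in hyperoxia), *Ikzf2*, the gene of the transcription factor Helios (798 against 200.5 and 2156 against 147 CPM), *Tnfrsf4* (196 against 33.7 and 259 against 22.4 CPM), and *Klrg1*, which after *Foxp3* had the largest ratio in room air (166 against 1.68 and 392 against 13.0 CPM). Outside that list, the genes with the largest ratios were *Fgl2*, an effector molecule of regulatory T cells, *Ccr4*, *Il1rl1*, the interleukin 33 receptor of tissue regulatory T cells, *Penk* and *Fam46a*. In room air *Fgl2*, *Il1rl1* and *Penk* were each detected in only 2 *Foxp3*+ cells, with 4, 9 and 3 UMIs. The log2 ratio of *Penk* there was 2.75 (-0.38 to 6.33). Lower in *Foxp3*+ cells of both libraries were *Satb1*, *Tcf7*, *Bcl2*, *Scml4*, *Nsg2* and *Dusp10*, and 8 of 13 naive genes. *Limch1*, *Npnt* and *Saa3* also had small ratios and were detected in at most 2 *Foxp3*+ cells of a library. *Ifng* was at 0 in all *Foxp3*+ cells.

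Further regulatory genes were seen in a larger share of the *Foxp3*+ cells of hyperoxia, but at these small numbers of cells no such difference lay beyond counting error once the cells were thinned to 2000 UMIs. The *Foxp3*+ cells were assigned on all UMIs, before thinning. *Il2ra*, the high-affinity chain of the interleukin 2 receptor, was found in 2 of 9 in room air and 15 of 20 in hyperoxia (52.8 points, 7.96 to 78.2), and after thinning in 0 of 9 and 7 of 20 (35.0 points, -3.93 to 59.2). *Ctla4* was found in 6 of 9 and 20 of 20 (33.3 points, 2.48 to 70.1), and after thinning in 5 of 9 and 16 of 20 (24.4 points, -14.4 to 61.6), and *Ikzf2* in 7 of 9 and 20 of 20. *S100a4* was found in 5 of 9 and 18 of 20 (34.4 points, -3.19 to 69.9). Over all CD4 T cells, 8 of 20 regulatory T cell genes could be compared, of which 3 were higher in hyperoxia and none lower, with a median log2 ratio of 0.22 that was -0.11 without *S100a4*+ cells. The higher ones were *Ctla4* (114 and 186 CPM, 0.70, 0.34 to 1.07), *Izumo1r*, the folate receptor 4 of regulatory and naive CD4 T cells (68.8 and 116 CPM, 0.75), and *Capg* (89.5 and 152 CPM, 0.76).

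The other helper programs were close to absent at this depth. Of the Th2 cytokines, *Il4* had 0 and 3 UMIs, *Il5* 0 and 5 and *Il13* 0 and 2. *Gata3*, the Th2 transcription factor that other T cells also express, stood at 107 and 96.4 CPM (-0.16, -0.56 to 0.26). The Th17 genes *Il17a*, *Il22* and *Il23r* and the follicular helper cytokine *Il21* had 0 UMIs in both libraries, which allows up to 3 UMIs each. *Il10* had 0 UMIs in room air and 23 UMIs, in 7 cells, in hyperoxia. *Tmem176a* (22 and 82.2 CPM) and *Tmem176b* (49.6 and 81.6 CPM), listed here with Th17 cells, were both higher in hyperoxia, and their median log2 ratio of 1.31 stood beside 1.34 in B cells. *Tmem176a* had a log2 ratio of 1.90 with all members and 0.61 without the cells rich in stromal, epithelial and myeloid transcripts.

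Immediate early genes were higher in hyperoxia in CD4 T cells and, to differing extents, in other cells. Of 17 such genes 14 could be compared, of which 7 were at least 1.5-fold higher, none was lower and all 14 had a ratio above 1. The median log2 ratio was 0.66 in CD4 T cells, 0.65 in CD8 T cells, 0.23 in T cells with neither co-receptor, 0.54 in B cells and 0.33 in endothelial cells (ECs). The AP-1 gene *Fos* stood at 208 CPM (176 to 244) against 465 CPM (432 to 500), and its log2 ratio was 1.16 (0.91 to 1.42). *Dusp1*, a phosphatase that dampens MAP kinase signals, stood at 147 and 323 CPM (1.13, 0.83 to 1.45), *Fosb* at 75.7 and 148 CPM (0.96), *Egr1* at 205 and 415 CPM (1.02) and *Zfp36*, which destabilizes cytokine mRNAs, at 106 and 188 CPM (0.83). *Jun* stood at 66.1 and 279 CPM (2.08, 1.64 to 2.54), which became 0.66 without the cells rich in stromal, epithelial and myeloid transcripts, whereas *Fos* was then at 0.95, *Egr1* at 0.76, *Dusp1* at 0.75 and *Nr4a3* at 1.21. *Junb* (0.24) and *Ier2* (0.16) were below the limit.

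Many immediate early genes carry a cAMP response element in their promoter, whose core TGACGT is bound by CREB and related factors. The core was searched on both strands in the 250 bases before the start of each gene in RefSeq (GRCm38.p6), a promoter being at hand for 12 of the 14 genes compared. It was found in 4 of the 12, in 3 of the 6 genes with a promoter that were higher in hyperoxia (*Fos*, *Nr4a3* and *Dusp1*) and in 1 of the 6 others (*Btg2*), against 7.29% of 27025 genes. A match describes these letters and shows no binding. The promoters of the 3 genes that were higher are shown 5′ to 3′ on the strand of the gene, with the matches on either strand in capitals, of which 2 in *Dusp1* overlap.
Fos, chr12:85473640-85473889, plus strand: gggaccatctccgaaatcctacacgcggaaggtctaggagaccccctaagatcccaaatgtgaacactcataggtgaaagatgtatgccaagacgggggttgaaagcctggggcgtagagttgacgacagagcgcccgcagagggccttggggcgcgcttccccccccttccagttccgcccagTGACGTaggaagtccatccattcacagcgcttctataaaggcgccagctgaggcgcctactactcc
Nr4a3, chr4:48045055-48045304, plus strand: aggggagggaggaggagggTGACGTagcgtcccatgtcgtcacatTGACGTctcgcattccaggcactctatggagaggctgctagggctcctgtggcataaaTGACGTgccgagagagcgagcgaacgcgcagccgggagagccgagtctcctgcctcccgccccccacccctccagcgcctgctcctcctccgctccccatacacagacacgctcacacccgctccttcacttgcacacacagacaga
Dusp1, chr17:26508473-26508722, minus strand: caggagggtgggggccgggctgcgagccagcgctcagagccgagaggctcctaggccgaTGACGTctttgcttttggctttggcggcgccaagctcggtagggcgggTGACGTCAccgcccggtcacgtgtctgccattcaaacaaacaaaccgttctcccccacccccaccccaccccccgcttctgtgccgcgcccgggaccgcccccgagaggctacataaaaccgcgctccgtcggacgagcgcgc

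Genes that glucocorticoids raise in lymphocytes were also higher. Of 15 such genes 6 could be compared, and 5 were at least 1.5-fold higher in hyperoxia and none lower, with a median log2 ratio of 0.66 in CD4 T cells, -0.05 in CD8 T cells, 0.09 in T cells with neither co-receptor and 0.18 in B cells. These were *Il7r* and *Dusp1*, given above, *Tsc22d3*, the leucine zipper protein GILZ (230 and 364 CPM, 0.66, 0.41 to 0.92), the thioredoxin inhibitor *Txnip* (191 and 300.0 CPM, 0.65) and the anti-proliferative *Btg1* (592 and 919 CPM, 0.64, 0.48 to 0.79). *Fkbp5*, another target of the glucocorticoid receptor, had 28.9 and 30.8 CPM. Of 10 genes of the T cell receptor response that could be compared, 3 were higher, namely *Nr4a3*, *Egr1* and *Tnfaip3* (226 and 369 CPM, 0.71), a brake on NF-kB, and none was lower. Among cytokine receptors 3 of 11 were higher and none was lower, beside 7.37% and 8.14% of all genes. The higher ones were *Il7r*, *Il6st* (61.9 and 107 CPM, 0.78) and the TGF-beta receptor *Tgfbr2* (128 and 204 CPM, 0.67).

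Genes of oxidative phosphorylation were lower in hyperoxia throughout the list. Of 29 nuclear genes of the respiratory chain and ATP synthase 28 could be compared, all with a ratio below 1 and 14 of them at least 1.5-fold lower. The median log2 ratio was -0.59 in CD4 T cells, -0.02 in CD8 T cells, -0.20 in T cells with neither co-receptor, -0.21 in B cells and 0.07 in ECs. *Cox7c* stood at 672 and 344 CPM (-0.97, -1.15 to -0.79), *Cox5b* at 478 and 274 CPM (-0.80), *Uqcrb* at 167 and 96.4 CPM (-0.79) and *Ndufa1* at 197 and 107 CPM (-0.88), whereas *Cox4i1* (932 and 920.0 CPM, -0.02) hardly differed. In a joint list of glycolysis genes and genes of the hypoxia-inducible factor (HIF), 5 of 12 genes were lower and 1 higher, with a median of -0.42. The median was 0.10 in CD8 T cells, 0.14 in T cells with neither co-receptor, -0.07 in B cells and 0.30 in ECs. In the split by *S100a4*, 7 of 12 genes of the list were higher in positive cells of both libraries and 1 lower. Among the lower ones were the glycolysis genes *Aldoa* (289 and 153 CPM, -0.92), *Tpi1* (128 and 77.1 CPM, -0.73) and *Eno1* (263 and 170 CPM, -0.63). The median of the oxidative phosphorylation list was -0.31 among *S100a4*- cells.

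Cell cycle genes were lower in 7 of 16 cases and higher in 1, with a median of -0.51 (0.01 in CD8 T cells and 0.61 in B cells) that was -0.26 without *S100a4*+ cells. *Tyms* (77.1 and 37.9 CPM, -1.02) and *Pcna* (184 and 116 CPM, -0.67), genes of DNA synthesis, were lower, while *Ube2c* (86.7 and 132 CPM, 0.60), a gene of mitosis, was higher. *Mki67*, a marker of cycling cells, was detected in 23 of 87 (26.4%) and 30 of 273 members (11%), a difference of -15.4 points (-26.5 to -5.57) and of -8.73 points (-18.6 to -0.84) after thinning, whereas its level was 195 and 177 CPM (-0.14, -0.44 to 0.16). After thinning to 1000 UMIs the difference was -3.66 points (-12.1 to 2.52). Of 15 interferon-stimulated genes 1 was lower (*Ifi27l2a*, 760 and 409 CPM, -0.89) and none higher, with a median of -0.39 in CD4 T cells, -0.21 in CD8 T cells, -0.36 in B cells and -0.74 in ECs. Survival genes (12), among them *Bcl2* (242 and 299 CPM, 0.30) and *Mcl1* (409 and 468 CPM, 0.19), and MHC class I genes other than *Psmb10* (136 and 71.3 CPM, -0.93) stayed within the limit. Over all genes compared, 7.37% were higher and 8.14% lower. The counts in the short lists that follow rest on 1 or 2 genes each. Of 13 antioxidant genes 2 were higher, *Prdx6* (0.65) and *Gpx1* (0.60), and 2 were lower, *Txn1* (-0.65) and *Gstp1* (-0.80). Of 5 targets of p53 that could be compared 2 were higher, *Trp53inp1* (125 and 218 CPM, 0.80) and *Cdkn1a* (48.2 and 86.1 CPM, 0.84), and the latter was at -0.19 without the cells rich in stromal, epithelial and myeloid transcripts. Of 12 heat shock genes 2 were higher, *Dnajb1* (128 and 198 CPM, 0.63) and *Hspb1*, which was found in 2 and 23 members. Among homing receptors, beside 7.37% and 8.14% of all genes, 1 of 15 was higher, *Ramp1*, a co-receptor for a neuropeptide (45.4 and 87.4 CPM, 0.94), and 2 were lower, *Itgb1* and the oxysterol receptor *Gpr183* (99.1 and 60.4 CPM, -0.71).

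**Figure D5:**
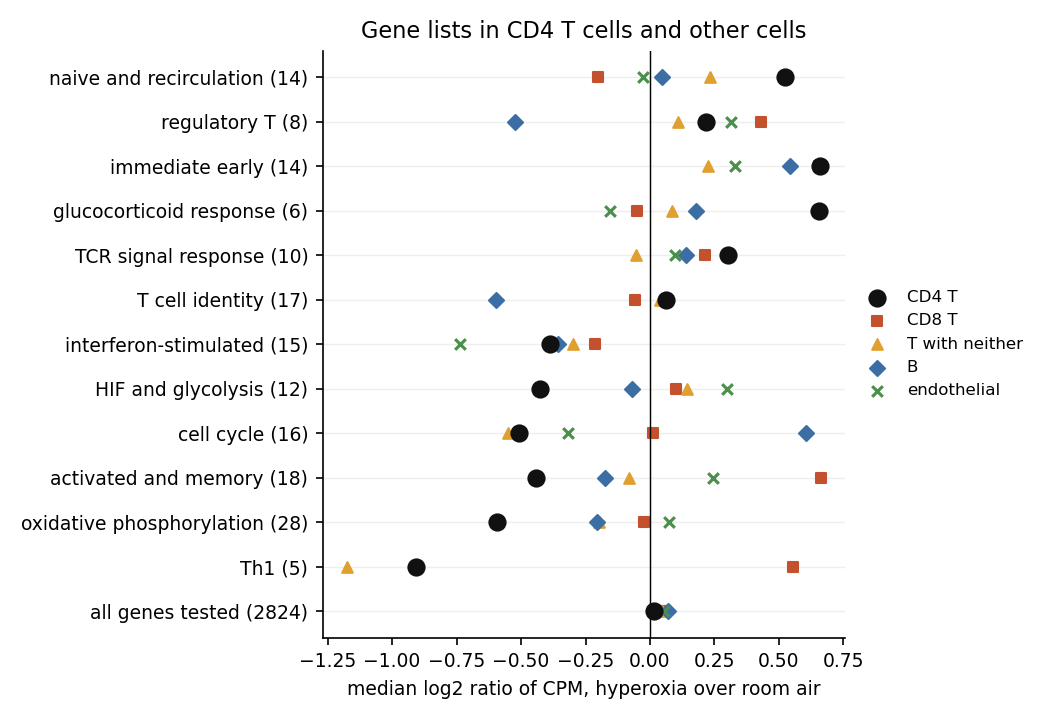
Median log2 ratio of CPM, hyperoxia over room air (x axis), of gene lists (y axis, with the number of genes compared in CD4 T cells) in CD4 T cells (black circles), CD8 T cells, T cells with neither co-receptor, B cells and endothelial cells, with no error bars since each point is a median of 1 library per group. In CD4 T cells the naive list lies at 0.52, the immediate early list at 0.66 and the oxidative phosphorylation list at -0.59, while all 2824 genes lie at 0.02.

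Within each library, CD4 T cells were set beside CD8 T cells. Of 2787 genes, 84 (3.01%) were at least 1.5-fold higher in CD4 T cells of both libraries and 34 (1.22%) lower. *Cd4*, *Cd8a* and *Cd8b1* were fixed by the rule. The other genes with the largest ratios in both libraries were *Tmem64*, *Tesc*, *Ikzf2* (310 against 74.5 CPM in room air, 371 against 101 CPM in hyperoxia), *Tspan32*, *Ass1*, *Capg*, *Tnfrsf18* (GITR, a receptor of regulatory and activated T cells) and *Izumo1r* (68.8 against 24.3 and 116 against 8.30 CPM), together with *Saa3*, which had 0 UMIs in CD4 T cells of room air and 769 in hyperoxia, 732 of them in 1 cell. Of 7 regulatory T cell genes 5 were higher in CD4 T cells of both libraries. The genes with the smallest ratios were those of cytotoxic and memory CD8 T cells: *Gzma* (53.7 against 893 CPM in room air, 61.0 against 1081 CPM in hyperoxia), *Ccl5* (226 against 2212 and 164 against 3592 CPM), *Ly6c2*, *Plac8*, *Klrd1*, *Gzmb*, *Ctsw* and *Ctla2a*. *Ifng* stood at 149 CPM in CD4 and 32.4 CPM in CD8 T cells of room air, and at 30.8 and 83.6 CPM in hyperoxia, so that the order of the groups was opposite in the libraries.

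FGF receptors, the subject of the study in ECs, were hardly detected in CD4 T cells. The 5 receptor genes summed to 24.8 CPM in room air against 37.9 CPM in hyperoxia, and *Fgfr1* was found in 4.60% and 3.30% of members, close to its shares in B cells (4.46% and 4.09%) and below those in ECs (15.0% and 27.9%).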

How the data were processed

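Lungs of C57BL/6 mice were dissociated, and 1 library of droplet scRNA-seq was made per group from 8 pooled mice, 16 in all. The authors aligned the reads to mm10 and deposited raw UMI counts per gene and cell as filtered matrices of 27998 genes, with 4234 barcodes for room air and 13223 for hyperoxia. The sources differ on the version of Cell Ranger (2.1.1 in the submitters' processing notes, 6.1.1 in the protocol, 3.1.0 in the matrix header) and of the kit. Cells, CD4 T cells and the other cell groups were taken from these counts by the thresholds given in the report, with no clustering and no doublet caller, doublets being limited only by the genes required at 0. CPM was computed from UMIs summed over cells. Median depths and totals stand in the report.

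With 1 library per group there was no test. Intervals are at the 95% level and cover counting error only: exact binomial (Clopper-Pearson) for shares, Poisson for levels, conditional binomial for ratios, and a combination of both shares' intervals for differences. Thinning drew 2000 (or 1000) UMIs per cell without replacement and left out shallower cells, 3 and 6 CD4 T cells at 2000. In the splits by *S100a4* and *Foxp3* cells were assigned on all UMIs, and only the genes counted within them were thinned. The rule for naming took the genes of the rule and of 42 gene lists, the top 12 and bottom 12 genes by ratio of hyperoxia over room air among those led by CD4 T cells (without *Xist* and Y-linked genes), and the top and bottom 10 by ratio in both libraries for CD4 over CD8 T cells and for the splits by *Foxp3* and *S100a4*. Members and lists were chosen with earlier results of these data known, and the split by *S100a4* after its values had been seen. The annotation held 0 T cell receptor segment genes, so these were not analysed. A few further genes are not reported here. Coordinates are from GENCODE on GRCm38 and promoters from RefSeq on GRCm38.p6. Ratio intervals were tested on simulated Poisson sums per gene, and share intervals on simulated binomial counts. The simulated sums held no cells, so UMIs gathered in few cells were not covered. Python 3.11.15, numpy 2.4.6, scipy 1.17.1, pandas 2.3.3 and matplotlib 3.10.9 were used.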

Additional observations from a re-analysis of the deposited data

How the results depend on the processing

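The libraries hold 1 sample per group, so that no library could be left out. No paired analysis was possible because each group has 1 library. Apart from *Cdkn1a*, given above, no value that lay beyond its limit changed direction in the results recomputed under the alternatives. Small values that did were the share of kept cells (0.05, and -0.31 points with stricter thresholds for CD3 and *Cd4*), the median of the regulatory T list (0.22, but -0.12 with no UMI of 8 genes of other cells and -0.11 without *S100a4*+ cells), the *Foxp3*+ share (-3.02, and 1.82 points with no UMI of 8 genes) and, with thinning, the shares positive for *Ctla4*, *Ikzf2*, *Icos* and *Il1rl1*. The counts of 208 higher and 230 lower genes depended on which genes were compared: they were 588 and 572 with a minimum mean of 20 CPM, 93 and 116 with 100 CPM, 2052 and 2343 with no minimum, and 45 and 55 at 2-fold. Scaling to the total without mitochondrial, ribosomal protein and haemoglobin genes gave 350 higher and 345 lower genes. With stricter thresholds for CD3 and *Cd4* (51 and 120 cells) 386 genes were lower, and the medians of the activated and cell cycle lists were -0.85 and -0.96. Without the *Cd4* requirement and with *Ncr1* at 0 (137 and 568 cells) 203 genes were higher and 136 lower, the naive median was 0.23, and the share of kept cells was 1.25 percentage points higher in hyperoxia; *Trdc*, planned for this alternative, was not among the annotated genes. With no UMI of 8 genes of other cells only 16 and 55 cells were left, with 516 higher and 758 lower genes and medians of 1.16 (naive), -1.33 (activated), 0.28 (immediate early), -1.24 (cell cycle) and -0.996 (oxidative phosphorylation). Without *Foxp3*+ cells the activated median was -0.9996. In alternatives chosen after seeing the data, it was -0.71 without the cells rich in stromal, epithelial and myeloid transcripts and -0.094 without *S100a4*+ cells, where the naive median was 0.21 and that of oxidative phosphorylation -0.31. Thinning to 1000 UMIs left differences of -0.71 (*Cd44*), -1.23 (*Cxcr3*), -1.23 (*Cxcr6*) and -3.66 points (*Mki67*). Of the main results, 133 values moved by less than their limit and 27 by more.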

Other observations

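*Xist*, which is expressed from the inactive X chromosome of female cells, stood at 167 CPM in CD4 T cells of room air and 455 CPM in those of hyperoxia and was detected in 16 and 73 members. The Y-linked *Ddx3y* stood at 64.7 and 102 CPM. Transcripts of both kinds were present in both libraries, and the sex of a single cell was not assigned.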
